A study of Mus musculus with 8 samples.

Results

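The Hox cluster genes of the mouse were followed across 4 origins of E11.5 embryonic material and across both genotypes of a FAK (focal adhesion kinase) mutant study. Members were all genes whose annotated symbol is Hoxa, Hoxb, Hoxc or Hoxd and a paralog number of 1 to 13 and nothing more. The gene table holds 39 such genes. Of these, 33 have a probe set that names no other gene, among 18193 genes with one, and each was read from its brightest such probe set over the 8 arrays. The choice of genes used no difference between origins or genotypes. The choice of probe sets by brightness favours those that are high in any origin.

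The study measured RNA on 8 Affymetrix arrays, 1 control and 1 mutant array for each of 4 origins. The p75 arrays are labelled as cranial neural crest cells sorted for p75 (the receptor encoded by Ngfr) from the head and thorax. For these arrays 3 embryos were pooled per genotype. The other origins carry the names LM, OFT and UM, which the labels do not spell out, so the names are kept, and the source of all arrays is given as head/neck. The stage of E11.5 is that of the labels for the p75 arrays and of the series title for the rest. The mutants are FAK mutants and the controls are labelled as controls. The allele, any Cre line, the strain, the genotype of the controls and the number of embryos behind the LM, OFT and UM arrays are not given in the sources used here. Because each origin has 1 array per genotype, its control and mutant arrays serve as its 2 replicates in comparisons of origins. The labels do not say that arrays come from separate litters or days, so p-values measure the spread between these arrays.

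Hox genes encode homeodomain transcription factors that tell cells of the embryo their position along the head-to-tail axis. They lie in 4 clusters, and genes at one end of a cluster, with low paralog numbers, are active further towards the head than genes at the other end. The forebrain, the midbrain and the neural crest of the first pharyngeal arch lack Hox expression, crest of the second arch expresses Hoxa2, and crest at the level of the heart and gut expresses further paralog groups. Retinoic acid is a known inducer of the low-numbered genes, and Pbx, Meis and Pknox proteins bind DNA together with Hox proteins.

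The 250 bases before the RefSeq transcription start are shown for 5 members that the comparisons of origins turn on. Hoxa2 differed between LM and UM, Hoxa5 was higher in both OFT and p75-sorted cells, Hoxa9 was higher in p75-sorted cells, and Hoxb4 and Hoxc4 are paralogs, of which Hoxc4 was higher in p75-sorted cells than in OFT and Hoxb4 was not called. Each runs 5′ to 3′ on the strand of its gene, in build GRCm38.p6. Capitals mark matches, on either strand, to 4 letter patterns: TGATNNAT, which paired Pbx and Hox proteins bind, TGACAG, which Meis and Pknox bind, AGGTCA, a nuclear receptor core, and TTTATG, which Cdx proteins bind.
Hoxa2 (chr6:52164832-52165081, minus strand): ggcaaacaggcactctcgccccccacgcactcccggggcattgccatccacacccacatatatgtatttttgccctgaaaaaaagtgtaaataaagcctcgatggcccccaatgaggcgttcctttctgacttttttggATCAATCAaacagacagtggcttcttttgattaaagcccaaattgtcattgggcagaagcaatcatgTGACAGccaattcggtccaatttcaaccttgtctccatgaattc
Hoxa5 (chr6:52204588-52204837, minus strand): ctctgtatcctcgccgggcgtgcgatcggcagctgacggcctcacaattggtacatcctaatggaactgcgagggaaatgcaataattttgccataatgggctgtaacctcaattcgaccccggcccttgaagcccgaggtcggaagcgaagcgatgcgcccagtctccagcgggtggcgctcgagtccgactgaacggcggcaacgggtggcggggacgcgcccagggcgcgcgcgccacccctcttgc
Hoxa9 (chr6:52227371-52227620, minus strand): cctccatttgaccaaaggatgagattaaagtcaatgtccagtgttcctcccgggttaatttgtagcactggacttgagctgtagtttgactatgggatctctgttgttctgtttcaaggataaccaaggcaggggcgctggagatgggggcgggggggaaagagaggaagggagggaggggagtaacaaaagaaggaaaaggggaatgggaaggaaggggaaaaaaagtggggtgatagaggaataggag
Hoxb4 (chr11:96318017-96318266, plus strand): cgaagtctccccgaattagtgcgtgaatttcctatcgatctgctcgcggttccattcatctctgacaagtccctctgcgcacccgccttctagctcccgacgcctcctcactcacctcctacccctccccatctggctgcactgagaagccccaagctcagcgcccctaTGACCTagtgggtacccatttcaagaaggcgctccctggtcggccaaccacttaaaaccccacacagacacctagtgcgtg
Hoxc4 (chr15:103034145-103034394, plus strand): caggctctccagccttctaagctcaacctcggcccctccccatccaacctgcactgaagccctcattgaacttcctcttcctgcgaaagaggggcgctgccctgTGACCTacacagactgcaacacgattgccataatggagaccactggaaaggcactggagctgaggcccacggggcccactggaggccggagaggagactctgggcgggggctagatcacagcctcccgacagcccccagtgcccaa
The Hoxa2 window holds a match to TGATNNAT on the opposite strand and 1 to TGACAG on its own strand. The Hoxb4 and Hoxc4 windows each hold 1 match to AGGTCA, on the opposite strand, and no pattern was found in the Hoxa5 and Hoxa9 windows. Matches are descriptions of letters. TGATNNAT was in 7.68% of all 32851 windows of this length and in 4 of 24 Hox windows, TGACAG in 15.9% and in 2 of 24, AGGTCA in 14% and in 6 of 24, and TTTATG in 10.8% and in 5 of 24. The 24 Hox windows, which belong to 22 genes, had a median of 12.5 CG dinucleotides against 6.0 over all windows, and a median GC content of 58.6% against 52.4%. Among those shown, Hoxa5 had 28 CG dinucleotides and Hoxa9 had 3.

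Values are intensities on the authors' linear scale, and differences are on the log2(intensity + 32) scale, which understates the fold of dim genes. Intensities of different genes come from different probes, so a gene is compared only with itself across arrays. A gene was tested when at least 2 of 8 arrays had an intensity over 19.4, which is the 40th percentile of the values. This kept 13545 genes and 19 of the 33 Hox genes, 6 of 9 in Hoxa, 6 of 9 in Hoxb, 4 of 7 in Hoxc and 3 of 8 in Hoxd. The other 14 were Hoxd1, Hoxa7, Hoxb7, Hoxb9, Hoxc9, Hoxa10, Hoxc10, Hoxd10, Hoxd11, Hoxd12, Hoxa13, Hoxb13, Hoxc13 and Hoxd13, whose highest value on any array lay between 2.29 and 20.1. The filter thus removed 1 of 10 measured members of groups 1 to 4, against 11 of 14 of groups 9 to 13. The sort marker Ngfr read 1043 and 1422 on the p75 arrays against 47.0 to 149 on the others, and Sox10, a defining crest gene, read 1512 and 1620 against 25.3 to 57.5. The p75 arrays also had Gapdh 3′ to 5′ probe ratios of 2.82 and 4.91, where the other arrays had 0.700 to 0.986, while the Actb ratio was 1.42 to 1.94 on all arrays. Sorting, pooling and these ratios go with the p75 origin on both its arrays and cannot be told apart from it. The number of arrays limits the precision, and in bulk RNA fewer cells of a type and less RNA per cell cannot be told apart.

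**Figure D1:**
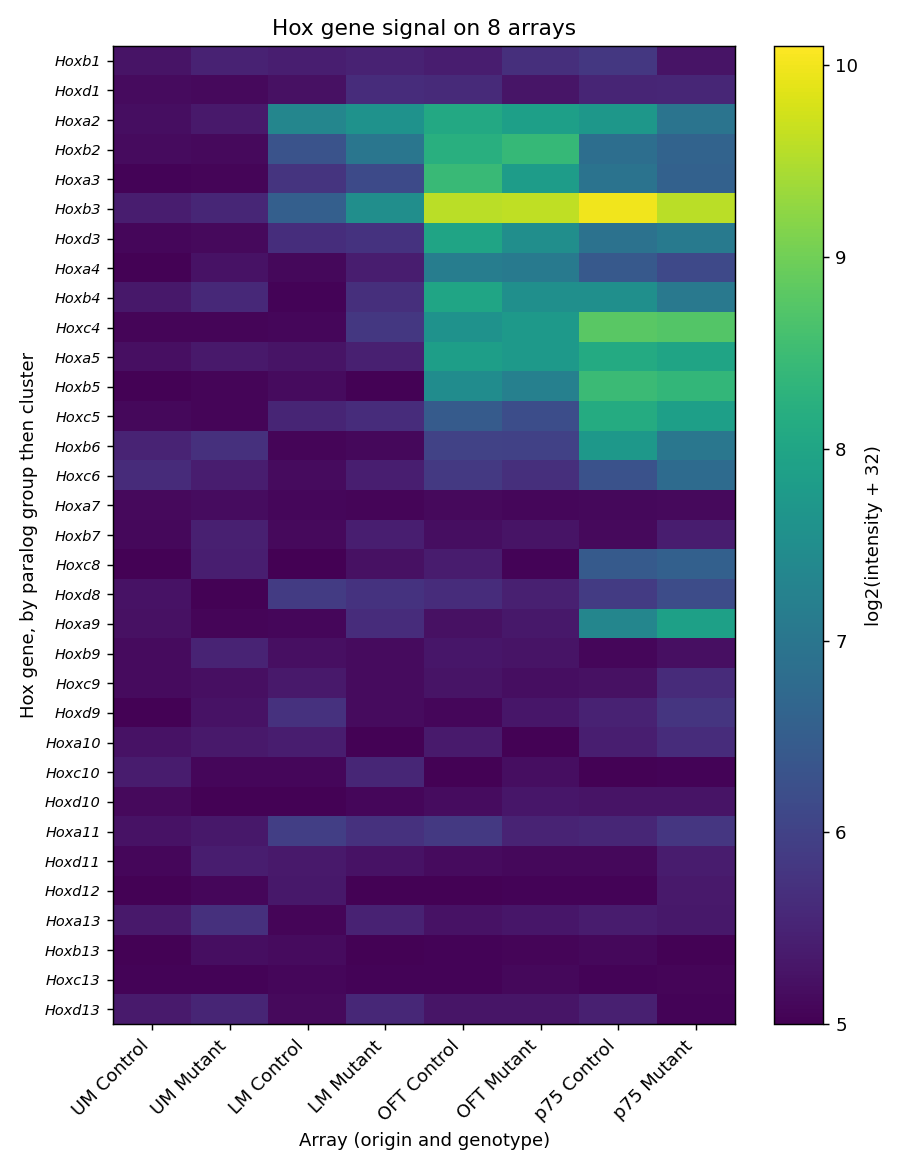
Signal of the 33 Hox genes with a single-gene probe set on each of 8 arrays, coloured by log2(intensity + 32), with genes in rows ordered by paralog group and arrays in columns by origin and genotype; colours compare arrays within a row, not genes with each other. The UM columns are dark throughout, with no intensity above 20.3 on the probe sets shown, and the signal in the OFT and p75 columns reaches paralog groups 5 and 9.

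On the UM arrays the Hox genes were near the bottom of the scale on the probe sets used. The highest intensity of any of the 33 members there was 20.3, for Hoxb6 on the mutant array, and 0 members had an intensity over 58, which is the 60th percentile of the values. On the LM arrays 2 members exceeded it in the control and 3 in the mutant, all of paralog groups 2 and 3. On each OFT array 8 members of groups 1 to 4, 2 of groups 5 to 8 and 0 of groups 9 to 13 did so. On the p75 arrays the numbers were 7 of groups 1 to 4, 4 in the control and 6 in the mutant of groups 5 to 8, and 1 of groups 9 to 13. The highest paralog group past this level was 3 in LM, 5 in OFT, and 9 in p75-sorted cells. These are counts at a fixed intensity over probes of different brightness. A second Hoxa5 probe set, not used here, read higher in UM, at 42.8 on the control and 67.5 on the mutant array.

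LM differed from UM in Hoxa2, Hoxb2 and Hoxb3, all higher in LM. Hoxa2, which patterns the second pharyngeal arch, read 131 and 163 on the LM control and mutant arrays and 4.39 and 8.63 on the UM arrays. Its log2 difference was 2.21 ± 0.23 (moderated SE, n = 2 arrays per origin), with a limma adjusted p of 0.00028. Both LM arrays lay above both UM arrays. Hoxb2, a hindbrain target of Egr2, read 46.6 and 96.2 in LM against 3.52 and 2.92 in UM (log2 difference 1.51 ± 0.22, limma adjusted p = 0.0032). Hoxb3, a neighbour of Hoxb2 in its cluster, read 60.9 and 152 in LM against 10.7 and 14.5 in UM (1.55 ± 0.27, limma adjusted p = 0.0096). The 2 LM arrays were far apart for Hoxb2 and Hoxb3, with the mutant higher, but did not overlap UM. The Hoxb3 call was lost without the LM mutant (limma adjusted p = 0.056), without the UM control (0.062) and without the UM mutant (0.08), and also with a pseudocount of 1 (0.086) or no filter (0.052). These 3 of 19 tested members were 15.8%, where 1.56% of all tested genes were called, 0.738% higher and 0.819% lower. Hoxa3 and Hoxd3 had differences of 0.90 ± 0.23 and 0.60 ± 0.20 that did not pass (limma adjusted p = 0.098 and 0.27). In the groups above 3 there were no calls, and the differences of groups 5 to 8 ran from -0.52 for Hoxb6 to 0.67 for Hoxd8.

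Otx2, a homeobox gene of the forebrain and midbrain, ran the other way. It read 194 and 181 on the UM arrays and 4.0 and 0.624 on the LM arrays, a log2 difference of LM minus UM of -2.68 ± 0.19 (limma adjusted p = 9.1e-06). On the OFT arrays it read 3.49 and 0.207, and on the p75 arrays 66.2 and 32.2. UM, where no Hox gene exceeded 20.3 on the probe set used, thus had the highest Otx2. Otx1 was also lower in LM (-1.53 ± 0.23, limma adjusted p = 0.0037), and Gsc, a homeobox gene of arch mesenchyme, was higher (0.89 ± 0.18, limma adjusted p = 0.028). Of the 7 homeobox genes in this list of head and cluster-flanking genes, 1 was higher and 2 were lower. Markers of other cell types moved with the same comparison: 3 of 6 tested neural tube progenitor genes and 3 of 8 neuron genes were lower in LM, and 5 of 8 paraxial mesoderm and skeletal muscle genes were higher and 2 lower. The summed progenitor signal was 250.4 and 293 in LM against 1083 and 1029 in UM, with Sox1 below the filter on every array, and the summed neuron signal was 602 and 1113 against 1865 and 1045. The summed paraxial and muscle signal was 928 and 1290 in LM against 1090 and 1042 in UM. The part of these cell types in the Hox differences was not tested.

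**Figure D2:**
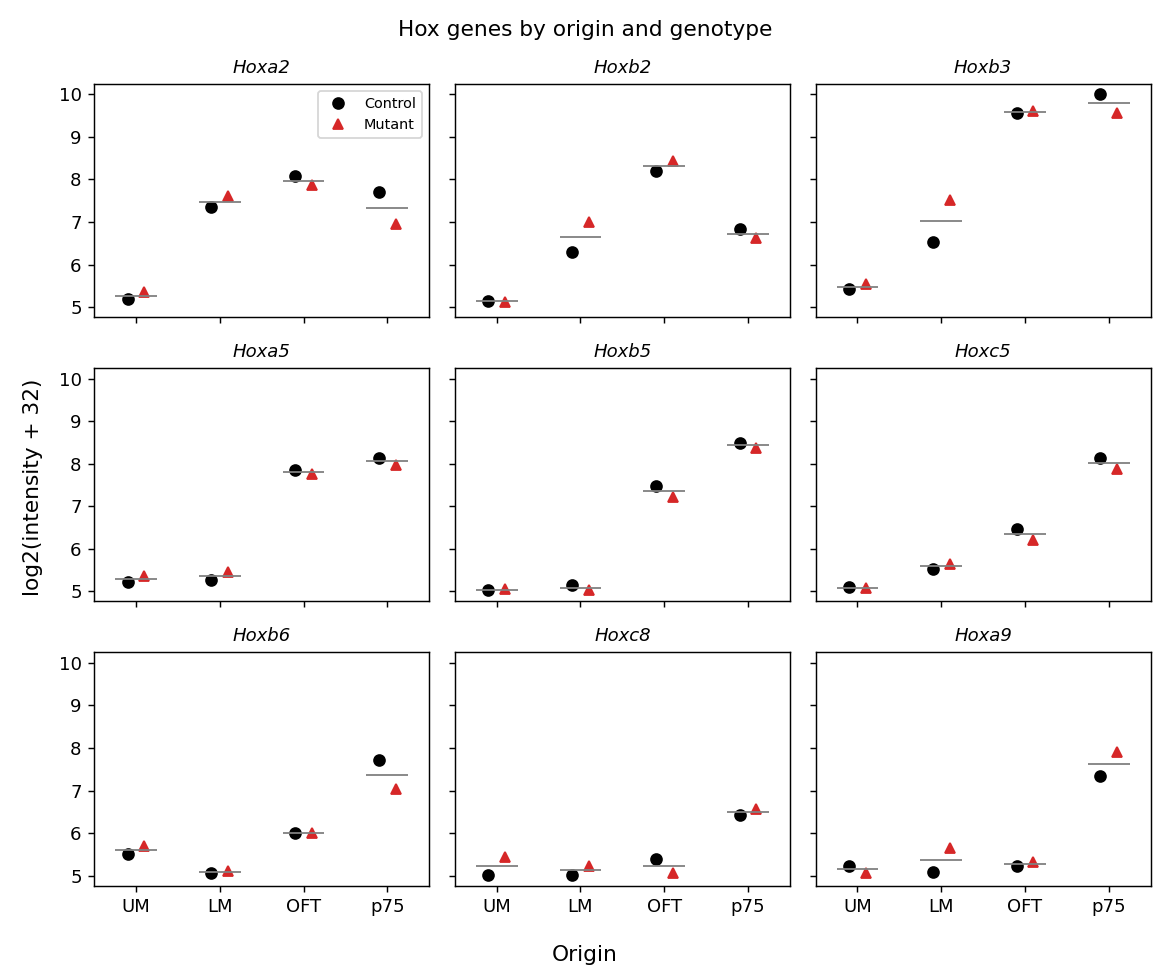
Log2(intensity + 32) of 9 Hox genes in the 4 origins, with a circle for the control array, a triangle for the mutant array and a grey line at their mean. Hoxa2, Hoxb2 and Hoxb3 are raised in LM over UM, the group 5 genes are raised in OFT and p75 but not LM, and Hoxc8 and Hoxa9 are raised in p75.

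OFT carried signal for paralog groups 2 to 6. Of the 19 tested members 12 were higher than the mean of LM and UM (63.2%) and 0 were lower, against 15.2% of all genes called, 11.3% higher and 3.88% lower. The median log2 difference over the tested members was 1.60, against 0.015 over all tested genes. Hoxa4, Hoxa5, Hoxb5, Hoxc5 and Hoxc6 were over the filter intensity on the OFT and p75 arrays alone. Hoxd3, Hoxb4 and Hoxc4 were also over it on the LM mutant array, and Hoxb6 on the UM mutant array. A single such array would not have admitted these genes to the test. Their place in these counts and in this median follows in part from the filter. The 3 tested group 3 genes, which act in the hindbrain and pharyngeal arches, were all higher. Hoxb3 read 728 and 749 in OFT, where the 4 LM and UM arrays read 10.7 to 152 (log2 difference 3.34 ± 0.23, limma adjusted p = 1.2e-06). Hoxa3, needed for thymus and parathyroid formation, read 319 and 193 against 1.05 to 38.5 (2.62 ± 0.20, limma adjusted p = 2.7e-06). Hoxd3 read 220 and 151 against 1.86 to 21.7 (2.34 ± 0.17, limma adjusted p = 1.8e-06). For all 3 genes both OFT arrays lay above every LM and UM array. The group 2 genes were also higher, Hoxb2 at 264 and 311 in OFT (2.42 ± 0.19, limma adjusted p = 3.6e-06) and Hoxa2 at 237 and 202 (1.60 ± 0.20, limma adjusted p = 0.00017). Hoxa2 read 131 and 163 in LM against 4.39 and 8.63 in UM, and Hoxb2 46.65 and 96.2 against 3.52 and 2.92. The mean of LM and UM thus joins unlike values for both genes, and OFT lay closer to LM than to UM.

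In group 4, Hoxa4 read 111 and 105 in OFT and at most 10.5 in LM and UM, a difference of 1.93 ± 0.17. Hoxb4 read 224 and 153 against at most 19.5 (2.35 ± 0.22), and Hoxc4 read 163 and 184 against at most 24.98 (2.41 ± 0.18). All 3 passed with limma adjusted p of at most 1.7e-05. In group 5, Hoxa5, which acts in lung and airway development, read 200 and 186 in OFT against 5.08 to 11.6 in LM and UM (2.49 ± 0.15, limma adjusted p = 4.1e-07). Hoxb5, a gene of vagal neural crest and gut innervation, read 147 and 117 against 0.513 to 3.65 (2.29 ± 0.15, limma adjusted p = 7.1e-07). On the probe sets used, Hoxa5 and Hoxb5 were thus at the bottom of the scale in LM and UM and high on both OFT arrays. The second Hoxa5 probe set read 19.4 to 67.5 in LM and UM and 115 and 104 in OFT. Hoxc5 read 56.6 and 41.9 in OFT (1.0 ± 0.16, limma adjusted p = 0.00093), and without the OFT control array its call was lost (0.055). Hoxb6, at 32.2 and 31.8, had the smallest called difference (0.65 ± 0.19, limma adjusted p = 0.037). Its call was lost without the LM control, the UM control or either OFT array (limma adjusted p of 0.064 to 0.26).

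Beyond group 6 nothing in OFT passed. Hoxc6 had a difference of 0.37 ± 0.18 (limma adjusted p = 0.21), and Hoxc8, Hoxd8, Hoxa9, Hoxd9 and Hoxa11 had differences of -0.09 to 0.12. Hoxb1, the group 1 gene active in the fourth rhombomere, had 10.5 and 19.6 in OFT and 6.55 to 12.9 in LM and UM (0.13 ± 0.19, limma adjusted p = 0.68). Cardiac muscle markers separated OFT from the other origins: 6 of 6 were higher, with a summed signal of 10670 and 11750 against 27.1 to 119 in LM and UM. The markers of neurons (5 of 8 higher, summed signal 5055 and 3322 against 602 to 1865), endothelium (4 of 4 higher, 1149 and 942 against 443 to 492), and foregut and lung mesenchyme (3 of 5 higher and 1 lower, 1019 and 919 against 306 to 876) moved in the same comparison. The part of these cell types in the Hox differences was not tested.

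Both comparisons with LM and UM use the same 4 arrays of those origins, so their results are not independent, and the values are given side by side. In p75-sorted cells 16 of 19 tested members were higher than the mean of LM and UM (84.2%) and 0 were lower, against 48.1% of all genes called, 29.4% higher and 18.7% lower. The median log2 difference over the tested members was 1.33, against 0.086 over all tested genes. Hoxa4, Hoxa5, Hoxb5, Hoxc5 and Hoxc6 entered the test only through the OFT and p75 arrays, and Hoxc8 and Hoxa9 only through the p75 arrays. Hoxd3, Hoxb4, Hoxc4 and Hoxb6 were over the filter on a single LM or UM array, so they too needed the OFT or p75 arrays. These counts and this median thus follow in part from the filter. Both group 2 genes were among those higher. Hoxa2 read 177 and 92.8 on the p75 arrays, on either side of its LM values, and differed from the mean of LM and UM by 0.96 ± 0.20 (limma adjusted p = 0.002). Hoxb2 read 82.4 and 66.2 and differed by 0.83 ± 0.19 (limma adjusted p = 0.0034). Without the p75 control array the calls of Hoxa2 and Hoxb2 were lost (limma adjusted p = 0.081 and 0.1). The p75 and LM arrays overlapped for both genes. Hoxa3, Hoxd3, Hoxa4 and Hoxb4 were higher by 1.26 ± 0.20, 1.60 ± 0.17, 1.07 ± 0.17 and 1.88 ± 0.22, and Hoxb3, at 992 and 727, by 3.53 ± 0.23 (limma adjusted p = 6.4e-07).

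In groups 4 and 5 several members were at the bottom of the scale in LM and UM, where the size of a log2 difference depends on the pseudocount. Hoxc4 read 415 and 396 against 1.68 to 24.98 on the LM and UM arrays (3.51 ± 0.18, limma adjusted p = 1.4e-07). Hoxb5 read 324 and 301 against 0.513 to 3.65 (3.36 ± 0.15, limma adjusted p = 3.9e-08), and Hoxa5 read 247 and 221 (2.73 ± 0.15, limma adjusted p = 2.1e-07). Hoxc5 read 250 and 204 against 1.77 to 18.2 (2.67 ± 0.16, limma adjusted p = 3e-07). Each of these genes was high on both p75 arrays with no overlap with LM or UM. In group 6, Hoxb6 read 180 and 98.5 (2.03 ± 0.19) and Hoxc6 45.7 and 78.6 (1.13 ± 0.18). Hoxc8, a gene of the brachial and thoracic level, read 54.7 and 63.1 against 0.385 to 11.2 (1.33 ± 0.18, limma adjusted p = 8.7e-05). Hoxa9, a gene of posterior trunk levels and the one with the highest paralog number called, read 131 and 207 against 1.52 to 18.1 (2.36 ± 0.18, limma adjusted p = 1.8e-06). Both Hoxc8 and Hoxa9 were over the filter intensity on the 2 p75 arrays alone, so a gene like them could be tested only where it was high in p75-sorted cells. Hoxd8, at 27.0 and 40.8, overlapped the LM arrays (27.1 and 21.4). Its difference of 0.56 ± 0.16 (limma adjusted p = 0.014) was lost without the p75 mutant array (0.28).

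Hoxb1, Hoxd9 and Hoxa11 did not pass in any comparison of origins. On the 8 arrays Hoxd9 spanned 0.771 to 23.0 and Hoxa11 5.87 to 29.5. Markers differed here too, where 29.4% of all tested genes were higher in p75-sorted cells than in LM and UM and 18.7% lower. All 6 tested crest and glia genes were higher in p75-sorted cells, with a summed signal of 7361 and 8162 against 556 to 1134 in LM and UM, and so were 8 of 8 neuron genes, at 5868 and 3384 against 602 to 1865. Neural tube progenitor genes had 2 of 6 higher, near the share of all genes. Their summed signal lay within the LM and UM range (768 and 712 against 250.4 to 1083, with Sox1 below the filter on every array). Paraxial mesoderm and skeletal muscle genes had 5 of 8 higher and 1 lower (1559 and 2053 against 928 to 1290). Surface epithelium genes were lower in 5 of 5 (421 and 358 against 1005 to 2118). The part of these cell types in the Hox differences was not tested.

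**Figure D3:**
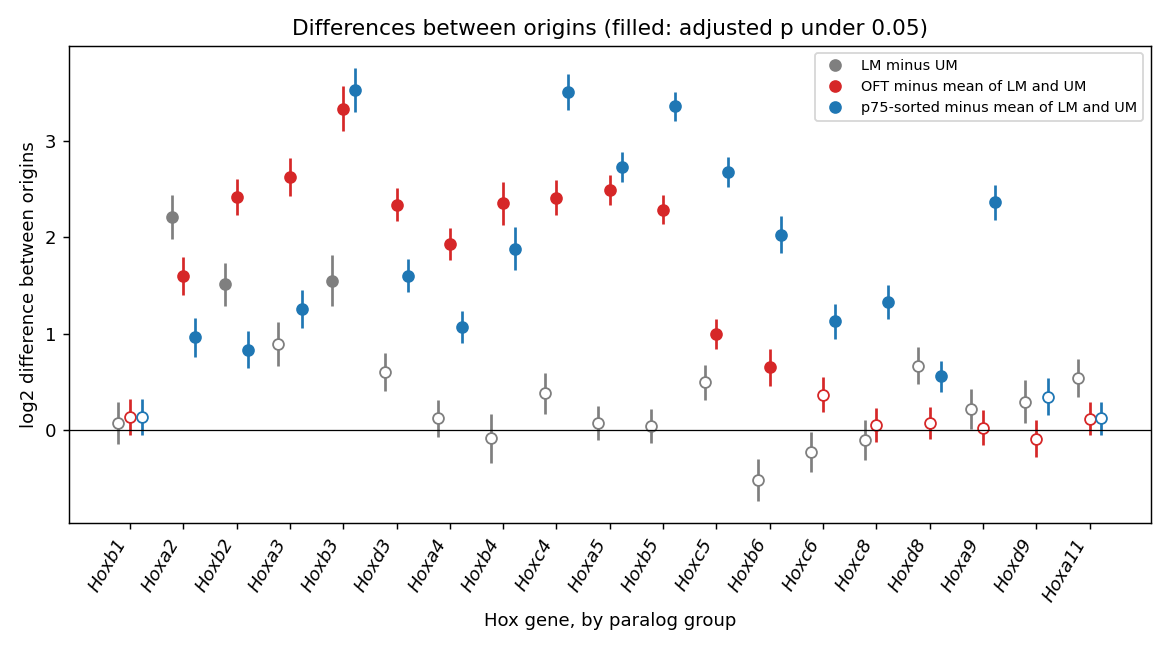
Log2 differences between origins for the 19 tested Hox genes, ordered by paralog group, with moderated standard errors as bars: LM minus UM in grey, OFT minus the mean of LM and UM in red, and p75-sorted cells minus the same mean in blue; filled points passed an adjusted p of 0.05. Grey filled points stop at Hoxb3, red ones at Hoxb6 and blue ones at Hoxa9.

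Compared directly, p75-sorted cells were lower than OFT for 4 members of groups 2 to 4 and higher for 7 members of groups 4 to 9. These were 57.9% of the 19 tested members, against 34.6% of all tested genes, 19.2% higher and 15.4% lower. The lower genes were Hoxb2 by -1.59 ± 0.22 (limma adjusted p = 0.00024), Hoxa3 by -1.36 ± 0.23 (0.00089), Hoxa4 by -0.86 ± 0.19 (0.0051) and Hoxd3 by -0.74 ± 0.20 (0.013). For each, both p75 arrays lay below both OFT arrays. The higher genes were Hoxc4 by 1.09 ± 0.21, Hoxb5 by 1.08 ± 0.17, Hoxc5 by 1.67 ± 0.18, Hoxb6 by 1.38 ± 0.22, Hoxc6 by 0.76 ± 0.21, Hoxc8 by 1.28 ± 0.20 and Hoxa9 by 2.34 ± 0.21. Hoxa9 had the smallest limma adjusted p of these, at 1.1e-05, and Hoxc6 the largest, at 0.015. In groups 1 to 4, 1 of 9 tested members was higher and 4 were lower, with a median difference of -0.64. Groups 5 to 8 had 5 of 7 higher and 0 lower, with a median of 1.07. Hoxc8 and Hoxa9 entered the test only through the p75 arrays, so their place in these counts and medians follows in part from the filter.

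The clusters differed in their counts, but also in the paralog groups tested. The tested Hoxc genes were Hoxc4, Hoxc5, Hoxc6 and Hoxc8, while each other cluster had a tested group 3 gene. Cluster and paralog group were not separated in these counts. All 4 tested Hoxc genes were higher in p75-sorted cells than in OFT, including Hoxc4, the single member of groups 1 to 4 that was higher. Hoxa had 1 higher and 2 lower of 6, Hoxb 2 higher and 1 lower of 6, and Hoxd 0 higher and 1 lower of 3. Within group 4 the paralogs went apart: Hoxa4 fell from 111 and 105 in OFT to 53.4 and 37.6 in p75-sorted cells, Hoxb4 read 224 and 153 against 154 and 101 (-0.47 ± 0.26, limma adjusted p = 0.18), and Hoxc4 read 163 and 184 against 415 and 396. The gap between Hoxa4 and Hoxb4 depends on the probe set. The second Hoxb4 probe set read 94.0 and 77.9 in OFT and 38.5 and 27.5 in p75-sorted cells (-0.86), and the second Hoxa4 probe set differed by -0.02. Whether one paralog's difference departs from another's was not tested. Hoxa2 (-0.64 ± 0.23, limma adjusted p = 0.051), Hoxb3 (0.19 ± 0.27), Hoxa5 (0.24 ± 0.18) and Hoxd8 (0.48 ± 0.19, limma adjusted p = 0.066) did not pass.

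Some of these calls were lost when a single array was left out, which leaves 1 array in that origin and lowers the power. The differences kept their direction. Hoxa4 was lost without the OFT control (limma adjusted p = 0.058) or the p75 mutant (0.094), Hoxd3 without the OFT control (0.2) or the p75 control (0.12), and Hoxc6 without the OFT mutant (0.19) or the p75 mutant (0.21). With a pseudocount of 1 in place of 32, 5 of the 11 calls were made. Of the marker lists, cardiac muscle was lower in p75-sorted cells than in OFT for 6 of 6 genes (309 and 291 against 10670 and 11750), crest and glia higher for 6 of 6 (7361 and 8162 against 1002 and 749), endothelium lower for 4 of 4 (170 and 192 against 1149 and 942), and neurons higher for 3 of 8 and lower for 1 (5868 and 3384 against 5055 and 3322). Neural tube progenitors were higher for 3 of 6 (768 and 712 against 361 and 430), and paraxial mesoderm and muscle higher for 4 of 8 and lower for 1 (1559 and 2053 against 1153 and 1423). Their part in the Hox differences was not tested.

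**Figure D4:**
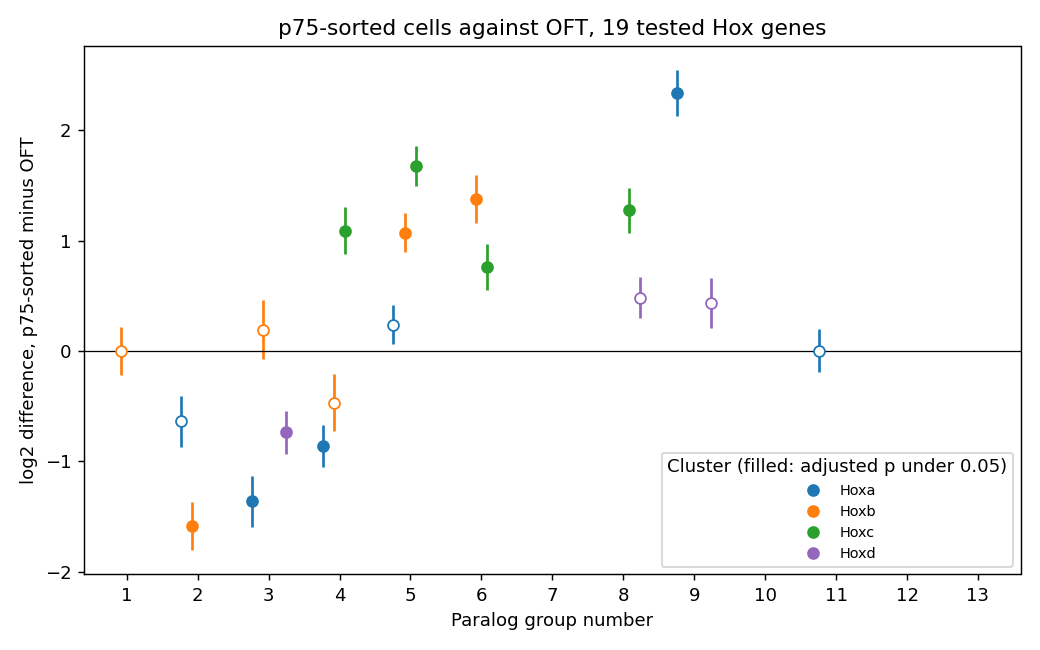
Log2 difference between p75-sorted cells and OFT for the 19 tested Hox genes against paralog group number, coloured by cluster and set slightly apart within a group, with moderated standard errors as bars and filled points where the adjusted p was under 0.05. The filled points below 0 are Hoxb2, Hoxa3, Hoxd3 and Hoxa4, and those above 0 run from Hoxc4 to Hoxa9.

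Further probe sets bear on these values. Of the 19 tested members 9 have more than 1 single-gene probe set. For members called in p75-sorted cells against OFT, 7 dimmer probe sets had the same sign as the one used and 2 the opposite sign, 1 for Hoxa3 (0.02 against -1.36) and 1 for Hoxc5 (-0.13 against 1.67). For OFT against LM and UM, 8 had the same sign and 1, for Hoxa3 (-0.02), did not, and for p75-sorted cells against LM and UM all 13 had the same sign, but several were near 0. The second Hoxa9 probe set read 15.4 and 28.8 on the p75 arrays and 17.6 and 25.8 in LM, a difference from LM and UM of 0.15 against 2.36 for the one used. A dimmer probe set gave 0.007 for Hoxa3, 0.03 for Hoxa4 and 0.18 for Hoxc5. For LM against UM the second Hoxb3 probe set gave 0.36 against 1.55, and with the mean of both the difference was 0.96 and the call was lost (limma adjusted p = 0.053). The Hoxa3 probe set used is of the kind that Affymetrix marks as shared between transcripts, and that of Hoxc6 is of the kind marked as open to cross-hybridisation. A second Hoxa5 probe set, also of the latter kind, differed from LM and UM by 0.99 in OFT and 1.66 in p75-sorted cells. The one used gave 2.49 and 2.73. On every LM and UM array the dimmer Hoxa5 and Hoxa9 probe sets read above the ones used, so the OFT or p75 values decided which was brightest. Hoxb8 and Hoxb7 share a probe set, which was left out of the tests. It read 211 and 140 on the p75 arrays and 1.12 to 12.2 on the other 6, while the probe set of Hoxb7 alone was under the filter. Hoxd4 shares 2 probe sets with Hoxd3, which read 117 and 142, and 115 and 107, in OFT, and 97.2 and 60.3, and 28.9 and 5.17, in p75-sorted cells. In LM and UM they read 0.338 to 40.9. Both were thus higher in OFT than in p75-sorted cells, as was Hoxd3 alone.

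2 antisense transcripts of the clusters, named here after their values were seen, were tested as well. Hoxb5os read 122 and 87.2 in OFT, 229 and 179 in p75-sorted cells and 9.16 to 26.3 in LM and UM, and was higher in p75-sorted cells than in OFT by 0.79 ± 0.17 (limma adjusted p = 0.004), in the same order as Hoxb5. The probe set used for Hoxd3os1 read 57.4 and 63.5 in p75-sorted cells and at most 7.60 elsewhere, and was higher there than in OFT by 1.31 ± 0.17 (limma adjusted p = 0.00015), where Hoxd3 was lower. A second Hoxd3os1 probe set read 1.77 and 2.72 in p75-sorted cells and 1.31 to 29.9 elsewhere, so the gap was seen on 1 of its 2 probe sets. Whether these probe sets read a single strand was not tested.

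The FAK mutants were compared with controls over the 4 origins. No Hox gene passed: 0 of 19 by limma after adjustment and 0 at an unadjusted p under 0.05. Over all tested genes 0% passed after adjustment and 3.03% were at an unadjusted p under 0.05. The members with the smallest p were Hoxa9 (0.26 ± 0.15 on the log2 scale, mutant minus control, n = 4 pairs), Hoxc4 (0.21 ± 0.15), Hoxb2 (0.17 ± 0.16), Hoxa3 (-0.15 ± 0.16), Hoxb3 (0.18 ± 0.19) and Hoxb5 (-0.11 ± 0.12), all with a limma adjusted p of 1. The standard errors of the 19 members ran from 0.12 to 0.19. Over all tested genes the smallest limma adjusted p was 0.75, and Myod1, a muscle marker, differed by 0.55 ± 0.12 without a call. The absence of calls thus does not exclude differences of several standard errors. No member was lower in the mutant in all 4 pairs, against 5.24% of all tested genes, and none was higher in all 4, against 3.94%.

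Within single origins the pairs pointed different ways, and these values have no replicate. In LM 15 of 19 members read higher in the mutant and 4 lower, where 55% of all genes were lower, with a median of 0.21 against -0.04 over all genes. The widest was Hoxb3 at 0.98 (60.9 in the control and 152 in the mutant), and Hoxd9 was lowest at -0.58. In UM 14 read higher and 5 lower, where 43.3% of all genes were lower, with a median of 0.09 against 0.04 over all genes, from Hoxc6 at -0.24 to Hoxc8 at 0.41. In OFT 6 read higher and 13 lower, where 57.1% of all genes were lower, with a median of -0.15 against -0.04, from Hoxa3 at -0.64 to Hoxb1 at 0.28. In p75-sorted cells 7 read higher and 12 lower, where 52.3% of all genes were lower, with a median of -0.14 against -0.02, from Hoxa2 at -0.74 (177 and 92.8) to Hoxa9 at 0.55 (131 and 207). The summed neuron signal also differed within pairs, at 602 in the control and 1113 in the mutant of LM, 1865 and 1045 in UM, 5055 and 3322 in OFT, and 5868 and 3384 in p75-sorted cells, and its part in these values was not tested. On the log2(intensity + 32) scale, which compresses low values, no member reached a 2-fold difference within any origin, where 0.568% of all genes did in LM, 0.221% in UM, 0.199% in OFT and 0.406% in p75-sorted cells. A test of whether the p75 pair differed from the mean of the other 3 pairs called 0 of 19 members by limma, against 0.0148% of all genes. At an unadjusted p under 0.05 it gave 3 members, 15.8%, against 4.47% of all genes: Hoxb1 (-0.74 ± 0.28), Hoxa2 (-0.82 ± 0.30) and Hoxb6 (-0.77 ± 0.28), each with a limma adjusted p of 0.97. The lone p75 pair is assumed there to vary like the others. Hoxb1 read 24.6 and 6.74 on the p75 control and mutant arrays. It was over the filter intensity on the p75 control and OFT mutant arrays alone.

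**Figure D5:**
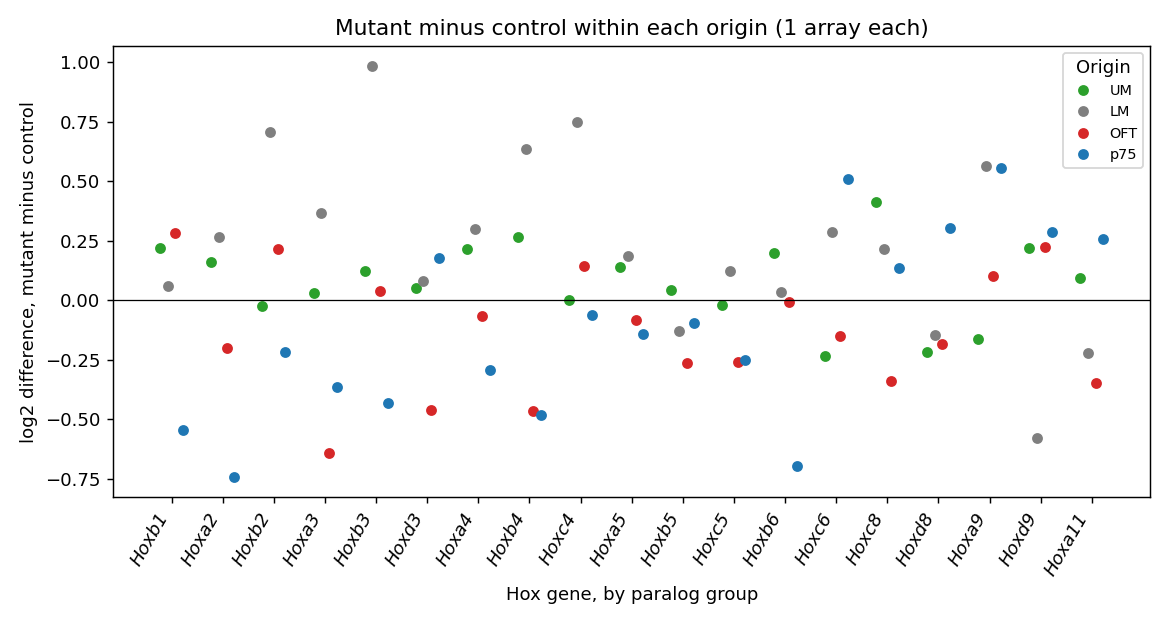
Log2 difference of mutant minus control for the 19 tested Hox genes, 1 point for each origin from 1 control and 1 mutant array. The points of a gene lie on both sides of 0 for every gene, and the LM points of Hoxb3 (0.98) and the p75 points of Hoxa2 (-0.74) are the ends of the range.

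Transcripts of the cofactors that bind DNA with Hox proteins also differed between origins. For the lists that follow, the shares of all genes to read the counts against were 11.3% higher and 3.88% lower in OFT and 29.4% and 18.7% in p75-sorted cells, both against LM and UM, 19.2% and 15.4% in p75-sorted cells against OFT, and 0.738% and 0.819% in LM against UM. Of 8 tested Pbx, Meis and Pknox genes, 3 were higher in OFT than in LM and UM: Meis1 by 1.24 ± 0.17, Meis2 by 0.65 ± 0.16 and Pknox1 by 0.61 ± 0.17. In p75-sorted cells 5 were higher and 1 lower, led by Meis3 at 1.25 ± 0.16, Pknox2 at 1.17 ± 0.16 and Pbx3 at 1.10 ± 0.16, with Pbx2 at -0.64 ± 0.17. Between p75-sorted cells and OFT, Pknox2 (1.19 ± 0.18), Meis3 (0.98 ± 0.18) and Pbx3 (0.66 ± 0.18) were higher, and Pbx2 (-0.83 ± 0.19) and Meis1 (-0.56 ± 0.20) were lower. Between LM and UM 1 cofactor passed, Meis2, which read 1179 and 1465 in LM and 779 and 661 in UM (0.84 ± 0.19, limma adjusted p = 0.045). The median over the 8 genes was 0.35 in OFT and 0.58 in p75-sorted cells, against 0.015 and 0.086 over all genes.

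Among 9 tested regulators upstream of Hox genes, Aldh1a2, the enzyme that makes retinoic acid, read 1372 and 1434 in p75-sorted cells, 422 and 348 in OFT and 193 to 269 in LM and UM. It was higher than in LM and UM by 2.51 ± 0.16 in p75-sorted cells (limma adjusted p = 5.9e-07) and by 0.72 ± 0.16 in OFT (0.01). Egr2, a hindbrain and Schwann cell lineage factor, was higher in p75-sorted cells by 2.32 ± 0.16 (limma adjusted p = 7.4e-07). There 3 of the 9 were higher and 3 lower, the latter led by Rarb, a retinoic acid receptor (-1.17 ± 0.16), and Cyp26b1, which degrades retinoic acid (-0.95 ± 0.22). Cyp26a1, another degrading enzyme, was the remaining higher gene (0.64 ± 0.22, limma adjusted p = 0.033). In OFT 1 was higher and 3 were lower, led by Cyp26a1, also a degrading enzyme (-1.21 ± 0.22). Between p75-sorted cells and OFT 4 were higher and 2 lower, with Egr2 at 1.98 ± 0.18, Cyp26a1 at 1.85 ± 0.26, Aldh1a2 at 1.79 ± 0.19 and Rarb at -0.98 ± 0.19. Between LM and UM Gbx2, a gene of the anterior hindbrain, was the 1 that passed (1.40 ± 0.19, limma adjusted p = 0.002). Cdx1, Cdx2 and Cdx4, which induce Hox genes of the trunk, read at most 13.4 on any array and were under the filter.

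Of 17 tested Trithorax and Polycomb genes, which maintain and silence Hox transcription, 8 were higher and 0 lower in p75-sorted cells than in LM and UM, where 29.4% of all genes were higher. In OFT 0 were higher and 1 lower, between p75-sorted cells and OFT 5 were higher, and between LM and UM none passed. The head and cluster-flanking homeobox genes had 4 of 7 lower in OFT than in LM and UM: Emx2 (-2.11 ± 0.16), Otx2 (-1.36 ± 0.16), Otx1 (-0.84 ± 0.20) and Evx2, the neighbour of the Hoxd cluster (-0.61 ± 0.15). In p75-sorted cells 2 of the 7 were higher and 3 lower, and against OFT 4 were higher and 1 lower. A list of genes of the hindbrain and of cardiac and vagal crest had 5 of 7 higher in OFT and 3 of 7 in p75-sorted cells than in LM and UM, with 0 lower in either. In p75-sorted cells against OFT 2 were higher and 3 lower, the latter led by Hand2 (-2.45 ± 0.22). Between LM and UM 1 was higher, Hand2 (4.31 ± 0.22), and 0 were lower.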

How the data were processed

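The authors deposited linear-scale intensities for 45101 probe sets; their software is not given in these sources. The mean between the 2nd and 98th percentiles was about 150 on every array, and no further scaling was applied. The platform annotation named the probe sets: 34945 name 1 gene, 932 several, 9211 none, and 64 controls were left out. The brightest single-gene probe set stood for each gene. Hoxd4 and Hoxb8 have only shared probe sets. Ptk2, which encodes FAK, was not analysed here.

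Values were tested as log2(intensity + 32) with limma 3.58.1 in R 4.3.3 (lmFit, eBayes) on all 13545 genes, with terms for origin and genotype, 3 residual degrees of freedom (prior 9.06) and Benjamini-Hochberg adjustment over all tested genes, at a threshold of 0.05. The code was tested on simulated data. Control and mutant arrays are paired by the origin label. Deviations from the genotype means correlated within origins at 0.618 (LM), 0.667 (UM), 0.791 (OFT) and 0.878 (p75), which a shared tissue alone would give. Every member past the threshold is named for each comparison of origins, the 6 with the smallest p for genotype, and listed context genes only if past it, at most 4 per list and comparison. Cyp26a1 is named beyond this limit for p75-sorted cells against LM and UM. Members, lists and tests were chosen with earlier results of these data known. Alternatives were other pseudocounts, filters, normalizations and probe set rules, and leaving out arrays. RefSeq supplied the promoter windows (GRCm38.p6); 22 Hox genes matched.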

Additional observations from a re-analysis of the deposited data

Results flagged for a closer look

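In 2 of the 19 tested Hox genes, 1 of the 4 mutant-minus-control differences stood far from the other 3. For Hoxd8 the difference in p75-sorted cells was 0.302 on the log2 scale, where the other origins gave -0.219 to -0.146. For Hoxd9 the difference in LM was -0.58, where the others gave 0.218 to 0.286. Hoxd8 read at most 40.8 on any array and Hoxd9 at most 23.0. Chance puts about 1 in 20 such groups past the limit used, Dixon's critical value for 4 values.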

How the results depend on the processing

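Over the alternatives, Hox genes called in a comparison of origins kept their direction in every refit in which they were measured, and calls were lost in 7 of 228 gene-by-setting refits for OFT against LM and UM, 3 of 285 for p75-sorted cells against LM and UM, 12 of 196 for p75-sorted cells against OFT and 6 of 57 for LM against UM. With a pseudocount of 1, Hox calls went from 11 to 5 for p75-sorted cells against OFT and from 3 to 5 for LM against UM. Leaving out single arrays gave 10 to 12, 14 to 17, 9 to 12 and 2 to 4 Hox calls in these comparisons, and 0 for genotype. Calls over all genes were 2060 for OFT against LM and UM (999 with a pseudocount of 1, 624 to 2145 without single arrays), 6514 for p75-sorted cells against LM and UM (3654 to 6287 without single arrays, lowest without the p75 mutant), 4693 for p75-sorted cells against OFT (2845 and 1817 to 5035) and 211 for LM against UM (64 and 110 to 223). Genotype called 0 genes (0 to 1 without single arrays or pairs), and 0 with no replicate block, that is without the pairing by origin. The test of the p75 pair against the others called 2 genes, 0 with a pseudocount of 1 or an intensity trend, and 1 with a pseudocount of 16, no filter, quantile normalization, averaged probe sets, or no probe sets of the s or x type. Genotype differences, none of which passed, turned for Hoxb2 (-0.011) and Hoxb3 (-0.09) without the LM arrays, and for Hoxa3 without the OFT arrays (0.009), with averaged probe sets (0.016) or with a probe set not of the s or x type (0.124). Leaving out single arrays spanned -0.011 to 0.298 for Hoxb2, -0.09 to 0.381 for Hoxb3 and -0.326 to 0.009 for Hoxa3. The causes were not tested. Leaving out both p75 arrays was chosen after seeing the data.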
